A study of Mus musculus with 12 samples.

Results

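The red cell programme of the newborn mouse liver was followed here through 36 genes of the 24421 listed in the count tables. The members were chosen by symbol from a list of 37 genes that a developing red cell uses, with the globins kept apart. A total of 35 were found under the symbol given and Epb42 under the older symbol Epb4.2, while Ahsp was not analysed here. By role they fell into 9 factors that set the red cell fate or its growth, 10 genes of heme and iron, 10 of the membrane, its skeleton and the blood groups, and 7 that mark late red cells. The rule used no measured value, but the list was drawn up with earlier results of these data known.

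The study bred mice heterozygous for Man1a2tm1.1Ahe, an allele that lacks exon 2 of Man1a2, the gene of a Golgi enzyme that trims mannose from N-linked sugar chains, and compared wild type (WT, Man1a2 +/+) with null (Man1a2 -/-) newborns. Liver and lung were taken from 3 newborns of each genotype shortly after birth, giving 4 groups of 3 libraries, WT liver, null liver, WT lung and null lung, and 12 libraries in all. No agent was given, the deletion is present in every cell of a null animal, and the null newborns are known to die of respiratory failure. Polyadenylated RNA of liver and lung tissue, not of sorted cells, was sequenced. A lower value of a red cell gene can therefore stand, among other things, for fewer red cells or for less of that RNA in each cell. These cannot be told apart. Some members are also used by other cells of the tissue, and their part was not separated.

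Around birth the liver of a mouse is still a blood-forming organ. Erythroblasts mature there in islands around macrophages among the hepatocytes, under transcription factors of the GATA, KLF and SCL families and the hormone erythropoietin. As they mature they take up iron, make heme, build the band 3 and spectrin membrane, and finally lose their nucleus, so that the cells that leave for the blood and reach an organ such as the lung are mostly reticulocytes, which keep some RNA for a short time, and finished red cells.

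The window before the start site is given for 4 members. Klf1 and Bpgm differed between genotypes in liver by the main test, but not in every alternative fit. Rhag had one of the greatest differences between organs, and Alas2 kept a high level in lung. Lmo2 and Slc11a2, the other members that differed in liver by that test, were not among the promoters available. Sequences and coordinates are RefSeq's on GRCm38.p6, the assembly the submitters' processing notes call mm10, read 5′ to 3′ on the strand of the gene from 250 bases before the start to the last base before an exon of that gene in the GENCODE annotation. Capitals mark a GATA word, that is GATA with A or T before it and A or G after it, on either strand.
Klf1, chr8:84901732-84901927, + strand: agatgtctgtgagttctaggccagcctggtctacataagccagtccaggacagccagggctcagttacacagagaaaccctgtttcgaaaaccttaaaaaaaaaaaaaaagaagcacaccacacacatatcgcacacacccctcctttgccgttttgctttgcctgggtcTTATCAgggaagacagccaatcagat
Alas2, chrX:150547167-150547374, + strand: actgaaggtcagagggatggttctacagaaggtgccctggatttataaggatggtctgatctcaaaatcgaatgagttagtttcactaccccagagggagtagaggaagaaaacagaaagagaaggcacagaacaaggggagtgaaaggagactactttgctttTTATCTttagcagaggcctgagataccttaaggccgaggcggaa
Rhag, chr17:40810899-40811125, + strand: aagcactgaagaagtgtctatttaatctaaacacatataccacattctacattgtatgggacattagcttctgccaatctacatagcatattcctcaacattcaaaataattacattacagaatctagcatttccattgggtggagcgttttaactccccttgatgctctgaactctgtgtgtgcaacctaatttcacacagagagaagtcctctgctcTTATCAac
Bpgm, chr6:34476106-34476206, + strand: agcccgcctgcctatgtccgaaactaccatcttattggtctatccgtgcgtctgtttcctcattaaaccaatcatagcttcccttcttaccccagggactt

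The GATA words of Klf1 and Rhag read TTATCA and that of Alas2 TTATCT, all on the opposite strand. They began 80, 31 and 86 bases before the start site. The stretch of Bpgm held none. A CACCC word, CCACNCCC on either strand, which did not overlap a GATA word here, was found in the window of Alas2 alone among these 4, as GGGGGTGG, 42 to 35 bases before the start and beyond the stretch printed. Promoters of 25 members were in the table. Over the full 250 bases, 14 of the 25 (56.0%) held a GATA word against 27.1% of 27025 promoters in all, and 6 (24.0%) held a CACCC word against 15.8%. The GATA word was present in 5 membrane members and in 3 members of each other group. These are matches of letters and not measured binding.

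Some libraries stood apart and touch what follows. Totals ran from 26759463 to 42914295 counts, and 3 counts equalled 0.0538 to 0.126 CPM (counts scaled to a library total of 1000000), so that no member lay under the depth in liver. The values below are CPM scaled with factors common to the 12 libraries. Null lung 1 held 526 CPM over 9 lung epithelium genes where the other lungs held 20340 to 27220, and 20070 CPM over 10 striated muscle genes where the other lungs held 257 to 664. Null liver 1 held 8093 CPM over the same muscle genes, against 10.2 to 14.1 in the other livers. Hepatocyte genes summed to 250700 to 308900 CPM in WT livers, 292500 and 265800 CPM in null livers 1 and 2, and 364700 CPM in null liver 3. Man1a2 itself, counted over the whole gene and so not over the deleted exon alone, was 87.0, 54.2 and 68.6 CPM in WT livers and 53.7, 48.2 and 50.2 CPM in null livers (adjusted p = 0.0809, edgeR quasi-likelihood test). The adult globins cannot be used as a measure of red cells in these tables, because their 6 symbols drew 7 reads over all 12 libraries. The embryonic globin genes summed to 1.63 to 18.5 CPM.

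The first comparison asked whether the liver of null newborns carried the red cell programme at the level of WT. Most members did not differ by the test. Klf1, Lmo2 and Slc11a2 were lower and Bpgm was higher in null liver, 4 of 36 members (11.1%) at an adjusted p below 0.05 and a change of at least 1.2-fold in edgeR, where 26.9% of all 14343 genes tested passed. The groups did not overlap for 7 members (19.4%), against 46.6% of all genes. The median log2 fold change, null minus WT, was -0.11 over the members and 0.02 over all genes. The count rested in part on single libraries. It was 2 without WT liver 1 (Lmo2 and Car1, where 14.8% of all genes passed), 1 without WT liver 3 (Lmo2 alone, 11.3%), 6 without null liver 3 (21.8%), and 5 without null liver 1, the library with muscle RNA (23.8%). DESeq2 called 7 members (23.7%), upper-quartile factors gave 7 (28.6%), and all 12 libraries in 1 fit gave 2 (11.9%). Lmo2 was called lower in each of these.

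**Figure D1:**
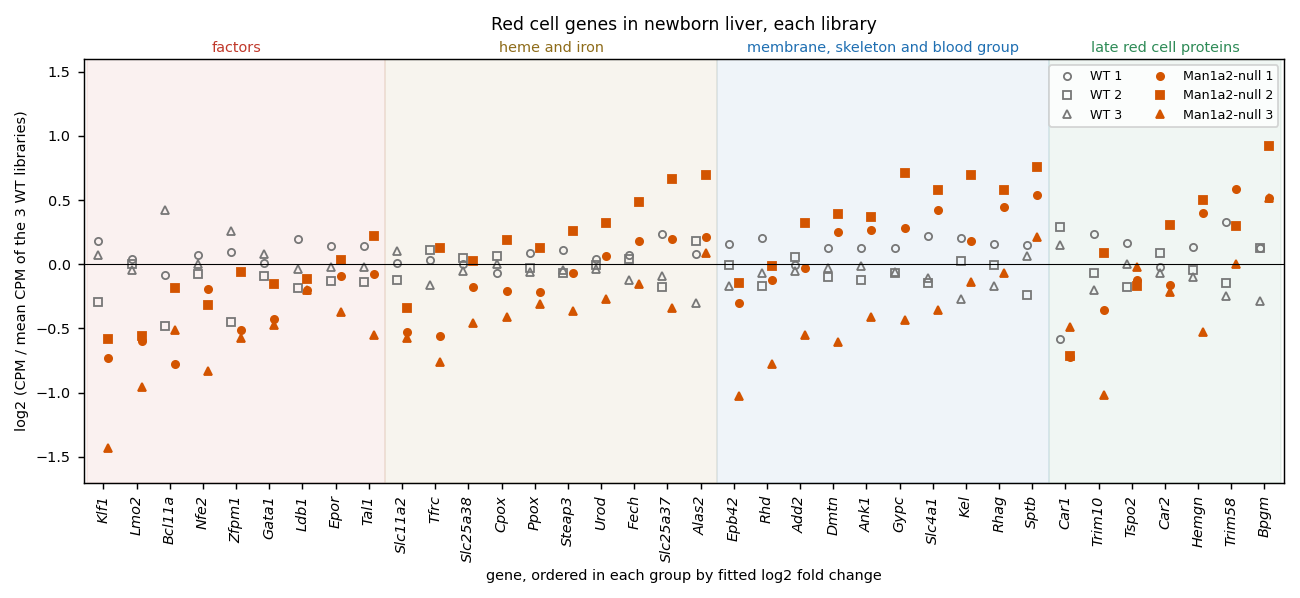
Each point is 1 liver library, as the log2 of its CPM over the mean CPM of the 3 WT livers (vertical axis), for the 36 genes in 4 role groups (horizontal axis, ordered by fitted log2 fold change). Klf1 and Lmo2 lie below the WT points in all 3 null livers and Bpgm above them, while null liver 3 (filled triangles) is the lowest null library for 33 of the 36 genes and null liver 2 (filled squares) the highest for 32.

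The 9 factors had negative log2 fold changes in null liver, from -0.88 for Klf1 to -0.11 for Tal1, with a median of -0.37, where 48.2% of all genes were below zero. Of them 2 (22.2%) passed the test, a share near that of all genes. Tal1 turned to 0.07 without null liver 3. Klf1, the factor that switches on adult beta globin and many genes of the late erythroblast, was 82.9, 59.8 and 77.1 CPM in WT livers and 44.1, 48.9 and 27.2 CPM in null livers. All null livers were below all WT livers. The log2 fold change was -0.88 (SE 0.23, adjusted p = 0.0268 in edgeR), but it was not called without WT liver 1 or WT liver 3 or with all 12 libraries in 1 fit (adjusted p = 0.161). Lmo2, the bridge protein of the complex that holds GATA1, TAL1 and LDB1 together, was 82.8, 80.6 and 78.2 CPM in WT and 53.2, 54.7 and 41.5 CPM in null livers. The WT livers lay close together here, and the log2 fold change was -0.70 (SE 0.12, adjusted p = 0.00711). Bcl11a, which keeps embryonic globin genes silent, was 14.1, 10.7 and 20.1 CPM in WT and 8.75, 13.2 and 10.5 CPM in null livers. These groups overlapped (adjusted p = 0.211).

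The remaining factors gave smaller values. Gata1, the master factor of the lineage, was 55.8, 51.9 and 58.5 CPM in WT livers and 41.2, 49.9 and 39.9 CPM in null livers. Its groups did not overlap, but the log2 fold change of -0.35 (SE 0.12) missed the threshold (adjusted p = 0.0615). Of the alternative fits, 3 called Gata1 lower and 13 did not call it. Nfe2, a partner of the small MAF proteins at the globin genes, gave -0.43 (adjusted p = 0.0841), again without overlap. It too was called lower in 3 of the alternative fits and not in 13. Zfpm1, the GATA1 partner FOG1, gave -0.37, Ldb1 -0.17, Epor, the erythropoietin receptor, -0.14, and Tal1 -0.11. The groups overlapped for these 4.

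Of the 10 heme and iron genes 1 passed, and their values fell on both sides of zero. Slc11a2, the carrier DMT1 that moves iron out of the endosome, was 48.5, 44.2 and 51.5 CPM in WT livers and 33.4, 37.9 and 32.3 CPM in null livers. The null livers were lower without overlap, with a log2 fold change of -0.48 (SE 0.11, adjusted p = 0.0174). This call too was lost without WT liver 1 or WT liver 3. Tfrc, the transferrin receptor that brings the iron in, was 638, 675 and 560 CPM in WT and 424, 682 and 368 CPM in null livers. Null liver 2 was above all WT livers and the other null livers below them (log2 fold change -0.35, adjusted p = 0.285). Of the alternative fits, 1 called Tfrc lower, with a library left out, and 15 did not call it. Alas2, the erythroid enzyme that begins heme synthesis, was 593, 635 and 457 CPM in WT and 649, 910 and 596 CPM in null livers. The groups overlapped (log2 fold change 0.35, SE 0.20, adjusted p = 0.214).

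The rest of the heme chain sat between. Urod, Cpox, Ppox and Fech, which carry out later steps of the synthesis, had log2 fold changes of 0.05, -0.13, -0.12 and 0.19, and their lowest adjusted p was 0.425. The mitochondrial carriers Slc25a37 (mitoferrin 1) and Slc25a38 (a glycine carrier) gave 0.23 and -0.19, and Steap3, the endosomal ferrireductase, -0.04. None of these 7 separated the groups.

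No membrane member passed in liver in edgeR, 1 had an unadjusted p under 0.05, and DESeq2 called 1, Sptb in both cases. Of all 14343 genes, 5935 had an unadjusted p under 0.05 in edgeR. The median log2 fold change of the membrane members was 0.18, with 7 above and 3 below zero. Sptb, erythroid beta spectrin, was 260, 198 and 244 CPM in WT livers and 341, 395 and 271 CPM in null livers. All null livers were above all WT livers, but the log2 fold change of 0.51 (SE 0.18) missed the threshold (adjusted p = 0.0648). Sptb and Ank1 are also used by striated muscle, and null liver 1 held muscle RNA. The part of that RNA in their liver values was not tested. Epb42, protein 4.2, which ties band 3 to ankyrin, was 118, 105 and 93.8 CPM in WT and 85.9, 95.7 and 51.9 CPM in null livers. The groups overlapped by 1 library (log2 fold change -0.45, adjusted p = 0.162). Rhag, the Rh-associated glycoprotein, was 164, 146 and 130 CPM in WT and 199, 219 and 140 CPM in null livers (log2 fold change 0.34, adjusted p = 0.195). Slc4a1, the anion exchanger band 3 and the most abundant member per exon length, gave 0.26 (adjusted p = 0.443), and the other 6, Gypc, Rhd, Kel, Ank1, Add2 and Dmtn, lay between -0.27 and 0.28.

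Among the late red cell proteins Bpgm, the enzyme that makes 2,3-bisphosphoglycerate and so sets the oxygen affinity of hemoglobin, was the member that rose. It was 163, 163 and 123 CPM in WT livers and 214, 283 and 214 CPM in null livers. The groups did not overlap, and the log2 fold change was 0.66 (SE 0.17, adjusted p = 0.0260 in edgeR). The call was lost without WT liver 1, 2 or 3 or null liver 2, at 0.49 to 0.74, under scaling to total counts, at 0.54, and with all 12 libraries in 1 fit, at 0.66 (adjusted p = 0.226). Car1, carbonic anhydrase 1, was 39.8, 72.6 and 66.2 CPM in WT and 36.0, 36.3 and 42.5 CPM in null livers. WT liver 1 lay within the null range, and the log2 fold change of -0.64 (SE 0.21) missed the threshold (adjusted p = 0.0570), but passed without that library (-0.85, adjusted p = 0.0145), and also with DESeq2, upper-quartile factors, total counts, a 10-count filter or the replicate block (adjusted p = 0.0192 to 0.0486). Trim10 was 160, 130 and 119 CPM in WT and 107, 145 and 67.2 CPM in null livers, with overlap (log2 fold change -0.36, adjusted p = 0.333). Hemgn, Car2, Tspo2 and Trim58 gave 0.18, -0.01, -0.11 and 0.31, all with overlap.

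The spread of the null livers had a common shape. Null liver 3 was the lowest of its group for 33 of 36 members and null liver 2 the highest for 32. How often this order held over all genes was not counted. Null liver 3 was also the library with the highest hepatocyte sum given above. The part of that shift in the values of the members was not tested. Without null liver 3, Klf1, Lmo2, Slc11a2 and Bpgm were called as before, and Rhag (log2 fold change 0.50) and Sptb (0.64) were called higher besides.

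Genes of the same pathways outside the members were counted by fixed lists. Of 20 other heme and iron genes tested in liver, 2 passed as higher and 4 as lower, with a median log2 fold change of 0.00. Hmox1, the enzyme that breaks heme down, was 468, 374 and 579 CPM in WT livers and 139, 145 and 226 CPM in null livers (log2 fold change -1.48, adjusted p = 0.00661). Bach1, the heme-sensing repressor of Hmox1, was 64.8, 59.7 and 66.2 CPM in WT and 129, 150 and 202 CPM in null livers (1.33, adjusted p = 0.00358). Neither gene had overlapping groups, and both are used by macrophages and other liver cells as well as by red cells.

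Of 19 other membrane genes 4 were higher and 2 lower, led by Tmod1, which caps the actin filaments of the skeleton (1.30, adjusted p = 0.0157), and Cldn13, a claudin of red cell precursors (-0.87, adjusted p = 0.0156). Tmod1 is also a gene of striated muscle. It was 40.5, 34.6 and 30.6 CPM in WT livers and 119, 92.2 and 50.3 CPM in null livers, highest in the null liver with muscle RNA, and the part of that RNA was not tested. The 17 other factors had 10 values above and 7 below zero and a median of 0.35, the other side from the members. Of them 4 were higher and 2 lower, led by Klf13 (1.18, adjusted p = 0.00772) and Lyl1, a relative of Tal1 (-1.0, adjusted p = 0.00818). The erythropoietin list gave 5 higher and none lower of 18, led by Pim1 (1.38) and Socs2 (1.27), which are targets of the JAK-STAT pathway in many cells. The list of reticulocyte maturation gave 5 higher and 1 lower of 20, led by Btg2 (1.94) and Fam46c (1.10). Of 12 cell division genes 4 were higher and none lower, with a median of 0.33. Read against the 13.5% of all genes called higher and the 13.4% called lower, these counts describe the lists and no more.

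Lists of other cells the liver holds were counted in the same way. Of 15 hepatocyte genes edgeR called none, and 1 had an unadjusted p under 0.05, with log2 fold changes from -0.08 to 0.45. Called higher were 4 of 10 neutrophil genes, 1 of 12 macrophage genes, 1 of 12 megakaryocyte genes, 1 of 8 B lineage genes and 2 of 10 endothelial genes, and none of these lists had a gene called lower. Of 10 stem and progenitor genes 2 were higher and 3 lower, and of 8 stellate and mesenchymal genes 1 was higher and 2 lower. Of 6 lung epithelium genes above the filter 1 was lower. EdgeR called none of 4 mast cell, 6 bile duct, 3 embryonic globin and 8 striated muscle genes, of which 1, 0, 0 and 8 had an unadjusted p under 0.05. The 8 muscle genes were high in null liver 1.

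The second comparison set the WT liver against the WT lung, where red cell RNA is that of blood in the vessels together with whatever lung cells make of the same genes. The lung held far less of nearly all members. A total of 35 of 36 members (97.2%) were higher in liver in edgeR, where 37.2% of 15635 genes tested were called higher, and the median log2 difference, liver minus lung, was 3.86 for the members and -0.04 for all genes. As a share of the liver mean, the lung mean was under 1% for 5 members, 1% to 10% for 16 and over 10% for 15. Scaling to total counts moved the median of all genes to -0.83, and 34 members were then called (84.0% of all genes), 33 of them higher in liver and Ldb1 lower. With the replicate number as a block, which pairs liver and lung of the same number, all 36 were called (77.7% of all genes), Ldb1 included (adjusted p = 0.0320).

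**Figure D2:**
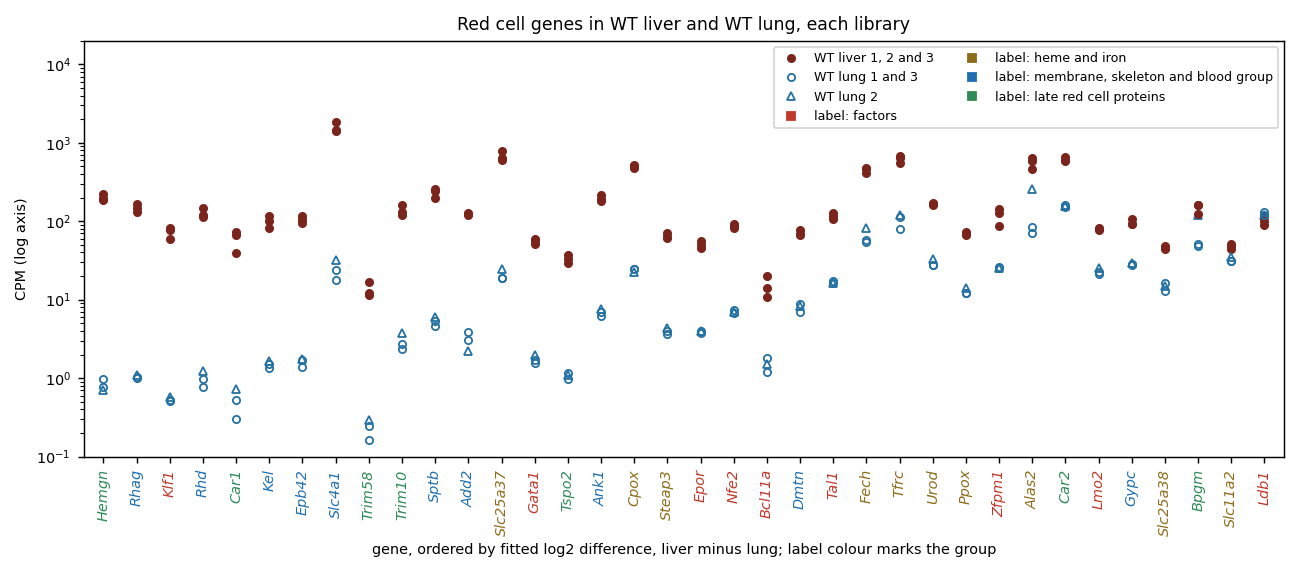
CPM on a log axis for the 36 genes in each WT liver (filled points) and each WT lung (open points, WT lung 2 as triangles), ordered by the fitted difference between organs. The gap runs from 7.92 log2 units for Hemgn on the left to -0.27 for Ldb1 on the right, and WT lung 2 stands above the other lungs for Alas2 and Bpgm.

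Hemgn, Rhag and Klf1 differed most. Hemgn, hemogen, a nuclear protein of erythroblasts, was 221, 196 and 188 CPM in WT livers and 0.99, 0.71 and 0.77 CPM in WT lungs. The log2 difference was 7.92 (SE 0.16, adjusted p = 2.94e-09). Rhag was 164, 146 and 130 CPM in livers and 1.04, 1.11 and 0.99 CPM in lungs, a difference of 7.14 (SE 0.14, adjusted p = 2.72e-09). Klf1 was 82.9, 59.8 and 77.1 CPM in livers and 0.52, 0.58 and 0.51 CPM in lungs, a difference of 7.11 (SE 0.19, adjusted p = 4.51e-09). Rhd and Car1 followed at 7.01 and 6.89, and these 5 were the members under 1% of the liver level.

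Alb, the hepatocyte gene of albumin, was set beside these values as a possible gauge of liver RNA in the lung libraries. Whether red cell RNA of the liver would follow Alb was not tested. Alb in WT lungs 1, 2 and 3 was 0.257%, 0.015% and 0.0233% of the mean WT liver level. The same share of the liver level would amount to 52.5% of the Hemgn value in WT lung 1, and to 4.25% and 6.08% of it in WT lungs 2 and 3. For Klf1 the shares were 36.2%, 1.90% and 3.37%, and for Alas2 1.70%, 0.0331% and 0.185%. In WT lungs 1, 2 and 3 Klf1 was 0.52, 0.58 and 0.51 CPM, Rhag 1.04, 1.11 and 0.99 CPM, and Hemgn 0.99, 0.71 and 0.77 CPM. The part of liver RNA in these values was not tested.

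Ldb1, Slc11a2 and Bpgm differed least. Ldb1, a widely expressed cofactor, was 117, 89.5 and 99.5 CPM in livers and 131, 122 and 120 CPM in lungs (log2 difference -0.27, SE 0.12, adjusted p = 0.0591). It was the one member that was not higher in liver, and all WT livers lay below all WT lungs. Of the alternative fits, 7 called it lower in liver and 9 did not call it. Slc11a2 was 48.5, 44.2 and 51.5 CPM in livers and 31.5, 35.2 and 31.0 CPM in lungs (0.58, SE 0.10, adjusted p = 4.31e-04). Under total-count scaling it turned to -0.21 and was not called, so that its direction depends on how the organs are scaled. Bpgm was 163, 163 and 123 CPM in livers and 47.8, 121 and 52.0 CPM in lungs, a difference of 1.03 (SE 0.32, adjusted p = 0.0153). It reached 1.6 without WT lung 2, and was not called without WT lung 3 (0.84, adjusted p = 0.0534), under DESeq2 (adjusted p = 0.0506) or under total-count scaling (0.24).

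By group, the median log2 difference was 5.75 for the membrane, 5.56 for the late proteins, 3.35 for the factors and 2.55 for heme and iron. Within heme and iron the range ran from 0.58 for Slc11a2 to 5.05 for Slc25a37, with Cpox at 4.4, Steap3 at 4.03 and Alas2 at 2.05. Within the membrane group Gypc, glycophorin C, was least different at 1.77, and Dmtn, dematin, next at 3.17. Among the factors Gata1 gave 5.01, Epor 3.69, Nfe2 3.65, Bcl11a 3.35, Tal1 2.83, Zfpm1 2.22 and Lmo2 1.81. Tal1, Zfpm1 and Lmo2 are also used by endothelial or other blood cells.

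The order of the members per exon length was therefore not the same in the 2 organs. In WT liver the mean level per kb of exon was highest for Slc4a1 (321.7 CPM per kb), then Car2 (253.4), Alas2 (233.7), Slc25a37 (112.2) and Tfrc (101.0). In WT lung it was highest for Car2 (63.9 CPM per kb), then Alas2 (56.8), Ldb1 (27.0), Bpgm (20.5) and Tfrc (16.9), and Slc4a1 came 12th at 5.02. Alas2 and Slc4a1 changed places between the organs in each library. Slc4a1 CPM was 3.10, 2.24 and 3.19 times that of Alas2 in WT livers and 3.26, 2.59 and 2.06 times in null livers. In lungs Alas2 CPM was 4.69, 8.0 and 2.96 times that of Slc4a1 in WT and 6.95, 9.40 and 1.59 times in null libraries. The libraries of the 2 organs did not overlap in this ratio, which was chosen after the values were seen and was not tested.

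**Figure D3:**
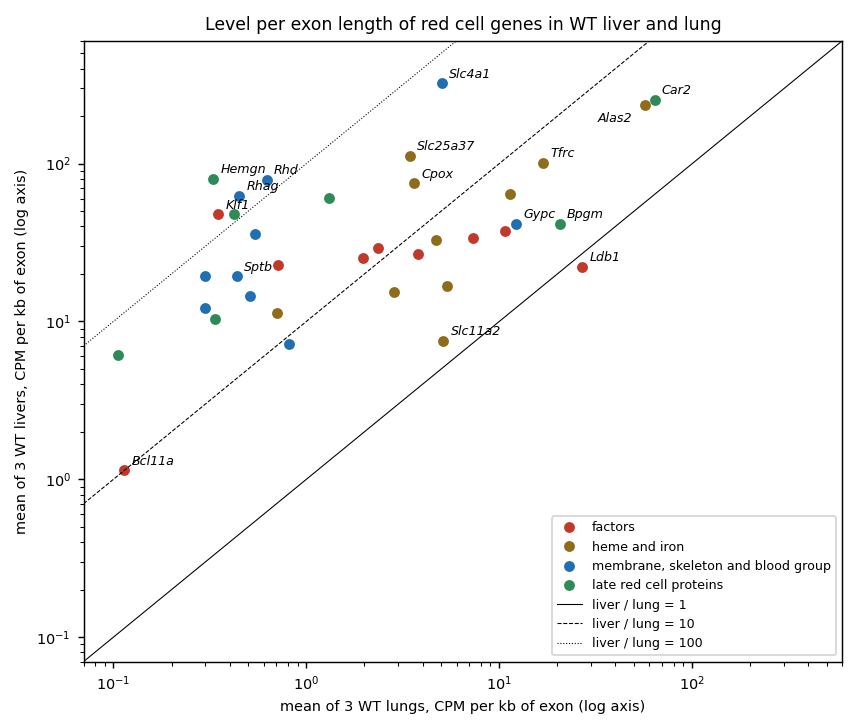
Mean level of each of the 36 genes per kb of exon in 3 WT livers (vertical log axis) and 3 WT lungs (horizontal log axis), coloured by role group, with lines at equal, 10-fold and 100-fold levels. Slc4a1 is highest in liver at 321.7 CPM per kb but 5.02 in lung, while Car2 and Alas2 are at the top in lung.

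WT lungs were not alike. WT lung 2 was highest of the 3 for 23 of 36 members, but by over 2-fold above the mean of the other lungs for 2 of them only. The same counts were not made over all genes. Alas2 was 84.7, 254 and 70.6 CPM in WT lungs 1, 2 and 3, a ratio of 3.27 for WT lung 2, and Bpgm had a ratio of 2.43. Slc4a1 was 18.1, 31.8 and 23.8 CPM, a ratio of 1.52, and Klf1, Hemgn and Rhag had ratios of 1.13, 0.81 and 1.09. The difference of Alas2 between organs was 2.05 (SE 0.44) with WT lung 2 and 2.87 without it. Whether that newborn's lung held more blood was not tested.

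In lung the genotypes were compared next, with null lung 1 set apart by more than its muscle RNA. Its lung epithelium sum was low, as given above. Its 10 endothelial genes summed to 812.5 CPM, against 2291 to 2853 CPM in the other lungs. Its 8 stellate and mesenchymal genes summed to 9499 CPM, against 1571 to 1981 CPM. No member was called in edgeR over all 6 lungs, where 0.327% of 15591 genes passed. An unadjusted p under 0.05 was found for 7 of 36 members and for 3898 of the 15591 genes. DESeq2 called 5 members (Tfrc and Slc11a2 lower, Sptb, Add2 and Hemgn higher) where it called 11.8% of genes. Total-count scaling called Slc11a2 alone (2.03% of genes), and all 12 libraries in 1 fit called the 5 and Gata1 (14.1%). The groups did not overlap for 10 members (27.8%), against 36.0% of all genes. Without null lung 1, edgeR called 12 of 36 members, 7 higher and 5 lower, where it called 37.0% of 15885 genes. Leaving out any other lung gave no called member, but each of those fits called 0 of all genes tested.

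**Figure D4:**
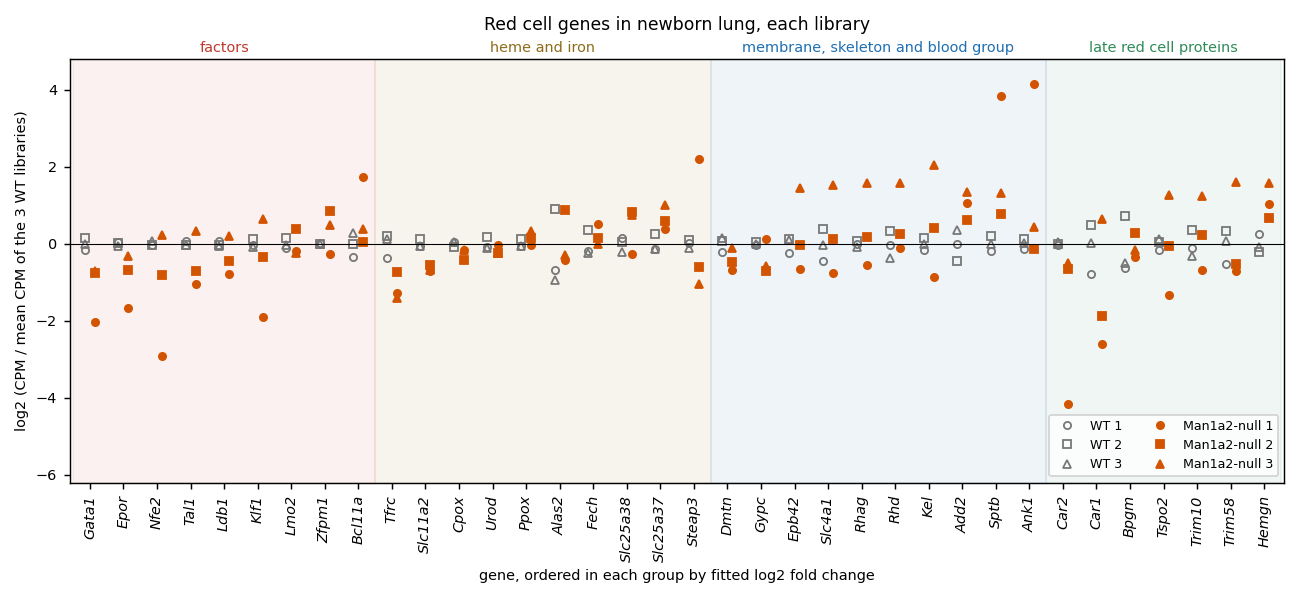
Each point is 1 lung library, as the log2 of its CPM over the mean CPM of the 3 WT lungs (vertical axis), for the 36 genes in 4 role groups. Null lung 1 (filled circles) stands over 3 log2 units above the WT lungs for Sptb and Ank1 and 4 below for Car2, and null lung 3 (filled triangles) is over 2 times the WT mean for 7 membrane genes and 4 late proteins.

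The values show which members moved in the 2 remaining null lungs. Tfrc was 80.8, 119 and 113 CPM in WT lungs and 42.8, 62.3 and 39.4 CPM in null lungs 1, 2 and 3, with a log2 fold change of -1.12 (SE 0.24, adjusted p = 0.0779) with all lungs and -1.05 (adjusted p = 0.0113) without null lung 1. Slc11a2 was 31.5, 35.2 and 31.0 CPM in WT and 20.1, 22.2 and 20.4 CPM in null lungs (-0.64, adjusted p = 0.0700; -0.62, adjusted p = 0.00606 without null lung 1). Both were below all WT lungs in every null lung, as Slc11a2 was in liver. Many lung cells use these 2 iron carriers, and the values do not separate blood from tissue.

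Null lung 3 held over 2 times the mean WT lung level for 11 members (30.6%), against 5.66% of all genes. Of the 11, 7 were of the membrane and 4 were late proteins (Hemgn, Tspo2, Trim58 and Trim10), while the membrane genes Gypc and Dmtn stood at 0.67 and 0.92 times the WT mean. Slc4a1 was 14.6, 26.6 and 70.2 CPM in null lungs 1, 2 and 3, Kel 0.83, 2.00 and 6.16 CPM against 1.35, 1.66 and 1.5 CPM in WT lungs, and Hemgn 1.68, 1.31 and 2.44 CPM. For Slc4a1 null lung 1 was below the WT lungs and null lung 2 within their range, and the fitted change of Kel (1.0 with all lungs) turned to -0.083 without null lung 3. Alb in null lung 3 was 0.0936% of the WT liver level, and 0.268% in null lung 2.

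Sptb and Ank1 carried a mark of null lung 1. Sptb was 4.63, 6.06 and 5.27 CPM in WT lungs and 75.7, 9.14 and 13.4 CPM in null lungs, and Ank1 was 6.26, 7.56 and 6.99 CPM in WT lungs and 122, 6.29 and 9.32 CPM in null lungs. Both genes are also used by striated muscle, and the part of the muscle RNA in these values was not tested. The log2 fold change of Sptb fell from 2.63 (SE 0.85, adjusted p = 0.139) to 1.08 (SE 0.22, adjusted p = 0.00837) without that library, and that of Steap3 turned from 0.94 to -0.82. The other members called without null lung 1 were Zfpm1 (0.67), Slc25a38 (0.78), Slc25a37 (0.81), Add2 (1.02), Hemgn (1.18) and Kel (1.45) as higher and Gypc (-0.65) and Car2 (-0.58) as lower.

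Whether the effect of genotype differed between the organs was tested for each member over all 12 libraries. No member passed in edgeR, where 0.371% of 16155 genes did. An unadjusted p under 0.05 was found for 5 of 36 members and for 2239 of the 16155 genes. DESeq2 called none of the members and 610 of 20414 genes. Without null lung 1 the test called Slc25a38 (lung minus liver 0.99, SE 0.20, adjusted p = 0.0219), which was 16.4, 15.1 and 12.8 CPM in WT lungs, 26.1 and 24.7 CPM in null lungs 2 and 3, 46.2, 47.7 and 44.6 CPM in WT livers and 40.9, 47.1 and 33.6 CPM in null livers. In that fit 5.0% of genes were called. Gata1 and Slc11a2 were lower and Sptb was higher in null than in WT libraries without overlap in both organs, 3 of 36 members (8.33%), where 18.0% of the 13819 genes tested in both organs separated in the same direction in both. No member separated in opposite directions.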

How the data were processed

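Newborn liver and lung were sequenced by the study as stranded poly-A libraries. Per the labels and processing notes the authors aligned reads to mm10 with STAR 2.5.2a after FastQC and deposited raw counts per gene. The counter, its annotation and its use of strand are not given in the sources used here, so members that overlap a gene on the opposite strand (Sptb, Ldb1, Alas2, Ppox, Cpox, Lmo2, Slc11a2 and others) may hold some of its reads. The 12 tables list 24421 genes each, 27 under names a spreadsheet had turned into dates, and totals ran from 26759463 to 42914295.

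From these counts, genes were filtered with filterByExpr, scaled with TMM factors and tested in edgeR 4.0.16 (R 4.3.3) by the quasi-likelihood test, with Benjamini-Hochberg adjustment over all genes tested. A gene was called at an adjusted p below 0.05 and a change of at least 1.2-fold. Each standard error was derived from the log2 fold change and the F value. Liver, lung and WT organs were fitted on 6 libraries each, the difference between organs on 12. Printed CPM values use TMM factors of all 12 libraries. Exon lengths and positions come from GENCODE M21 (GRCm38), promoters from RefSeq. The scripts were tested on simulated counts. DESeq2 1.42.0 and other scalings, filters and fits were the alternatives.

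Replicates are separate newborns. Same-numbered liver and lung deviated together (r = 0.143 to 0.200 in WT and 0.360 to 0.447 in null). Pairs with different numbers gave r = -0.152 to -0.0259 in WT and -0.42 to 0.235 in null. The labels do not say that a number marks an animal, and an order of processing shared by number cannot be told apart from it. Intervals cover counting error only where depth is given as a floor of 3 counts. The members and gene lists were chosen with earlier results of these data known. Named with values in every library were the 3 members of each role group with the greatest change in liver, the 3 most and 3 least different between organs, members called in lung or between organs, and other members where a statement rests on them. Outside the members, Man1a2 and up to 2 genes of each pathway list, those with the greatest change in liver, were named.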

Additional observations from a re-analysis of the deposited data

How the results depend on the processing

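In liver the number of called members (4) was 7 with DESeq2 and with upper-quartile factors, 2 with all 12 libraries in 1 fit, and 1 to 6 when a library was left out. In lung the count (0) was 5 with DESeq2, 1 under total-count scaling, 6 with all 12 libraries in 1 fit, and 0 to 12 when a library was left out, 12 being without null lung 1. Between organs the count (35) ran from 34 to 36 over all settings, and for the difference of the genotype effect (0) it was 0 to 1, the 1 being without null lung 1. Signs changed in fits that left out a library for 10 members in liver, 12 in lung, 0 between organs and 13 for the difference of the genotype effect. Each of these members was without a call on all libraries. In liver the 10 ranged over those fits from -0.29 to 0.15 (Add2), -0.059 to 0.31 (Ank1), -0.21 to 0.085 (Car2), -0.14 to 0.31 (Dmtn), -0.061 to 0.50 (Gypc), -0.023 to 0.44 (Hemgn), -0.073 to 0.44 (Slc25a37), -0.23 to 0.098 (Steap3), -0.32 to 0.070 (Tal1) and -0.12 to 0.19 (Urod). Other settings turned 3 of them, Urod (-0.052 with upper-quartile factors, -0.066 with total counts), Dmtn (-0.035 and -0.041) and Ank1 (-0.0089 with total counts). Of the lung values printed, Kel ranged from -0.083 to 1.45 and Steap3 from -0.82 to 1.39. Between organs Slc11a2 turned to -0.21 under total-count scaling. The cause of these changes was not tested. With the replicate number as a block the counts were 5 in liver and 0 in lung, where same-numbered WT and null libraries shared only a number (r = -0.08 to 0.13), 36 between organs and 0 for the difference. Of all genes, the block fits called 3304 of 14343 in liver, 0 of 15591 in lung, 12154 of 15635 between organs and 0 of 16155 for the difference. Apart from Ldb1 the block changed no call between organs. Scaling to adult globin counts was not run because these genes had almost no reads.

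Depth limits little in liver, where the lowest member, Bcl11a, stood at 8.75 CPM. In null lung 1 Trim58 (0.14 CPM), Klf1 (0.14 CPM) and Car1 (0.09 CPM) lay near the 0.0538 to 0.126 CPM of 3 counts.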
